A study of Mus musculus with 2 samples.

Results

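The let-7 genes with 2 genomic copies are 6 hairpin genes, Mirlet7a-1, Mirlet7a-2, Mirlet7c-1, Mirlet7c-2, Mirlet7f-1 and Mirlet7f-2, out of 2202 microRNA genes in the count tables. They were chosen by gene symbol, because the mature forms let-7a, let-7c and let-7f are each made from 2 loci, and the rule itself uses no measured value, though earlier results of these data were known when the genes were picked out. A gene here is a hairpin, so the products of its 5p and 3p arms are counted together. All 6 had at least 10 counts in each library, the minimum for calling a gene detected.

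MicroRNA sequencing was carried out on left cerebral cortex tissue of male B6CASTF1/J mice at 14 days of age. Animals of this hybrid strain carry a C57BL/6 and a CAST/Ei set of chromosomes. There was 1 group with 2 libraries, biological replicates 1 and 2, made from total RNA in a size class below 30 bases. The libraries have separate tissue records but share a donor label, and whether different animals were used is not stated. SDs therefore measure only the spread between the 2 samples, possibly a technical one, and no comparison between conditions exists. All p-values come from tests over reads and cover read sampling only, not the spread between samples.

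The let-7 microRNAs bind their target messenger RNAs through a seed near the 5′ end, which is the same across the family, and they accumulate as cells leave the progenitor state. In the nervous system they are known for restraining growth and stem cell genes such as Hmga2 and Lin28b, and the LIN28 proteins in turn block the maturation of let-7 precursors. When a mature form has 2 source loci, its sequence alone does not tell which of them was transcribed.

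The tables hold raw counts. Replicate 1 had 11224232 reads and 4111167 counts on the strand of a microRNA gene, and replicate 2 had 8758378 reads and 3189903 counts. A row named for multiply mapped reads held 39.1% of the reads in replicate 1 and 41.4% in replicate 2. In each of the 3 count columns all rows summed to the same total per library, so each read stands in 1 row, and the reads of this row are taken here to be in no gene; the mapping settings are not stated. Levels are given as CPM, the counts of a gene per 1000000 gene counts of its library. Of 8 neuron-associated markers 5 were detected, and all 8 together came to 35881 CPM (replicate 1) and 36020 CPM (replicate 2). Mir124a-1, Mir124a-2 and Mir124a-3, which define neurons, had 2 to 19 counts. By symbol these 3 are copies, and reads that matched several of them would be in the multiply mapped row. Their low counts therefore do not show that the microRNA was scarce. The single endothelial marker, the 4 markers of microglia and leukocytes and the 3 of oligodendrocytes were all detected. For tissues outside the brain, the liver marker Mir122 had 51.8 CPM (replicate 1) and 48.0 CPM (replicate 2), and both erythroid markers were detected. Of 5 muscle markers Mir206 had 85 and 76 counts and the other 4 had 0 in both libraries. These 4, Mir1a-1, Mir1a-2, Mir133a-1 and Mir133a-2, are also copies by symbol, so the same limit holds for them.

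The 5p forms are shown first because they are what the copies of a pair share. Their seed, bases 2 to 8, is in capitals and is the same in all 3.
let-7a-5p: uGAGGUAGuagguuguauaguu
let-7c-5p: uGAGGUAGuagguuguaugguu
let-7f-5p: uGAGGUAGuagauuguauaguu
Counted from the 5′ end of let-7a-5p, let-7c-5p differs by A19G and let-7f-5p by G12A. Each of these 22-base forms was found in both hairpins of its pair.

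The 3p forms are shown because they are where the copies part. Capitals mark the bases at which a form differs from that of the other copy when the forms are set side by side from their 5′ ends. All sequences are those of RefSeq on GRCm38.p6, with which mm10 shares its coordinates.
let-7a-1-3p: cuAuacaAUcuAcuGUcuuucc
let-7a-2-3p: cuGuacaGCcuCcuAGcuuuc
let-7c-1-3p: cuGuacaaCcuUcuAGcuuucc
let-7c-2-3p: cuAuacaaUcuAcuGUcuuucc
let-7f-1-3p: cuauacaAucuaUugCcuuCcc
let-7f-2-3p: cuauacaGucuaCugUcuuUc
The 3p forms differed at 6 of 21 compared positions in the let-7a pair, 5 of 22 in the let-7c pair and 4 of 21 in the let-7f pair. The 3p forms of Mirlet7a-1 and Mirlet7c-2, which belong to different pairs, had 0 differences over 22 positions. So Mirlet7a-2, Mirlet7c-1, Mirlet7f-1 and Mirlet7f-2 each had 1 arm found in no other microRNA hairpin of the table, and Mirlet7a-1 and Mirlet7c-2 had none. For Mirlet7f-1, the gene Gm24111, which overlaps it on the opposite strand, was not counted as another hairpin.

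The whole hairpins follow, with both mature arms in capitals. For an arm shared with another hairpin, the bases just outside it decide whether a read can be placed at 1 gene.
Mirlet7a-1: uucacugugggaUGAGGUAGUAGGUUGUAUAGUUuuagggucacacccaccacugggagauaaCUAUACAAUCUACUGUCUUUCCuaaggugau
Mirlet7a-2: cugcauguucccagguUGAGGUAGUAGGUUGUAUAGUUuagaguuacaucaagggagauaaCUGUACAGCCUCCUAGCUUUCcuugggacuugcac
Mirlet7c-1: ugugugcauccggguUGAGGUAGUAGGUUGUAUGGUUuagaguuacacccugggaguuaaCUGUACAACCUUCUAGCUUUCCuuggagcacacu
Mirlet7c-2: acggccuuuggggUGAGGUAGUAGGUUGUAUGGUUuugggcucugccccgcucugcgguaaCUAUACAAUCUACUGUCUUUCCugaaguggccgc
Mirlet7f-1: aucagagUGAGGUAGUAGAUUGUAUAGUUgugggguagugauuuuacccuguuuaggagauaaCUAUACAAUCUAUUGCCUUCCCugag
Mirlet7f-2: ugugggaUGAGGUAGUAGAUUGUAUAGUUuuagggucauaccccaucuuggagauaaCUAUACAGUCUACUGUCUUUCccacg
Starting at the first base of the 5p arm, a stretch had to reach 24 bases to occur in 1 hairpin only for both copies of let-7a and of let-7c, and 23 bases for both copies of let-7f. Starting 1 base upstream, 18 bases were enough for Mirlet7a-1, Mirlet7c-2 and both let-7f genes, and 20 bases for Mirlet7a-2 and Mirlet7c-1. From the start of the shared 3p arm of Mirlet7a-1 and Mirlet7c-2 it took 24 bases. Over the whole hairpin, 90.4% of the 22-base stretches of Mirlet7a-1 and 90.5% of those of Mirlet7c-2 occurred in no other microRNA hairpin, the lowest values of the 6, against 97.3% for Mirlet7a-2, 97.3% for Mirlet7c-1, 98.5% for Mirlet7f-1 and 98.4% for Mirlet7f-2. The search covered microRNA hairpins on both strands, not the whole genome, which was not used here. Genes that overlap the hairpin in question were left out of it.

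**Figure D1:**
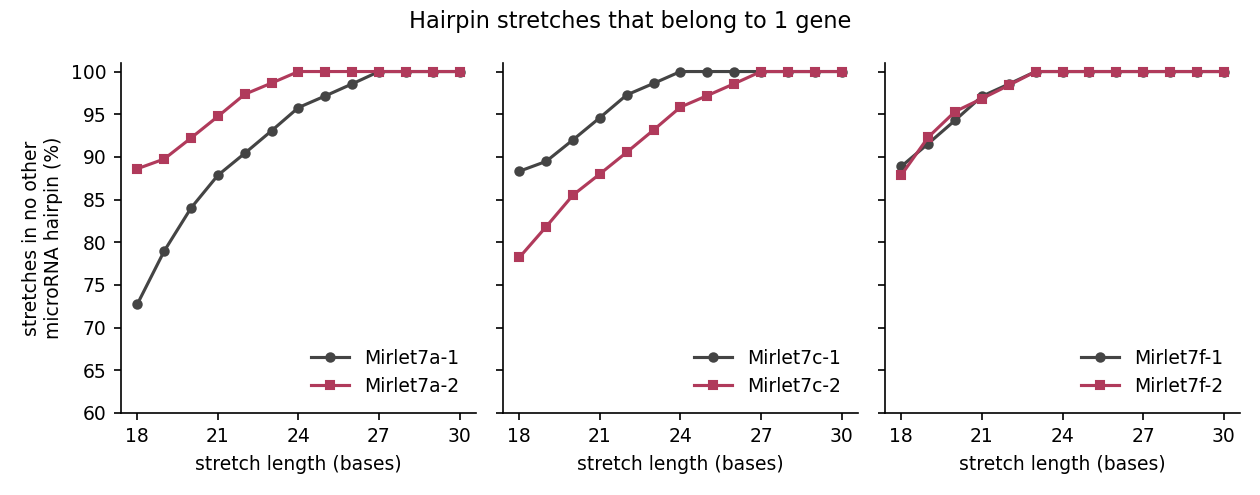
Percent of all stretches of a given length in each hairpin (y axis, from 60%) that occur in no other, non-overlapping microRNA hairpin, against stretch length in bases (x axis), with one panel per pair and one line per copy. Mirlet7a-1 and Mirlet7c-2 lie below the other copy of their pair at short lengths and reach 100% at 27 bases, while the lines of Mirlet7f-1 and Mirlet7f-2 nearly coincide and reach 100% at 23 bases.

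In counts placed at a gene, the let-7a pair was led by copy 1. The mature 5p form of each pair occurs in both hairpins, and multiply mapped reads are taken here to be in no gene. Which locus made more of a mature form was therefore not tested, here or for let-7c and let-7f. Mirlet7a-1 (ENSMUSG00000065421.3; mm10 chromosome 13, 48538179 to 48538272, minus strand, in an exon of the long non-coding gene 6720427I07Rik) had 1445 counts or 351 CPM in replicate 1 and 1294 counts or 406 CPM in replicate 2. Mirlet7a-2 (ENSMUSG00000092770.1; chromosome 9, 41536716 to 41536811, plus strand, inside introns of the non-coding genes 3110039I08Rik and Gm49317) had 637 counts or 155 CPM in replicate 1 and 354 counts or 111 CPM in replicate 2. Both libraries placed Mirlet7a-1 above Mirlet7a-2, and the CPM values of the loci did not overlap. Copy 1 held 69.4% of the pair's counts in replicate 1 (exact Clopper-Pearson 95% interval 67.4 to 71.4%) and 78.5% in replicate 2 (76.5 to 80.5%), a mean of 74.0% ± 6.45 (SD, n = 2). The log2 ratio of counts, copy 1 over copy 2, was 1.18 in replicate 1 and 1.87 in replicate 2.

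In counts placed at a gene, the let-7c pair was led by copy 2. Mirlet7c-1 (ENSMUSG00000065557.3; chromosome 16, 77599657 to 77599750, plus strand, intronic to the microRNA host gene Mir99ahg) had 2125 counts or 517 CPM in replicate 1 and 1419 counts or 445 CPM in replicate 2. Mirlet7c-2 (ENSMUSG00000065608.1; chromosome 15, 85706603 to 85706697, plus strand, overlapping an exon of Lncppara, a non-coding gene) had 7244 counts or 1762 CPM in replicate 1 and 6202 counts or 1944 CPM in replicate 2. Mirlet7c-2 was the higher copy in both libraries, without overlap. The share of copy 1 was 22.7% in replicate 1 (95% interval 21.8 to 23.5%) and 18.6% in replicate 2 (17.8 to 19.5%), a mean of 20.7% ± 2.87 (SD, n = 2). On the log2 scale copy 1 over copy 2 was -1.77 in replicate 1 and -2.13 in replicate 2.

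The let-7f pair had the most uneven split of the 3 in counts placed at a gene. Mirlet7f-1 (ENSMUSG00000105621.1; chromosome 13, 48537829 to 48537917, minus strand, in an exon of 6720427I07Rik) had 512 counts or 125 CPM in replicate 1 and 455 counts or 143 CPM in replicate 2. Mirlet7f-2 (ENSMUSG00000065602.1; chromosome X, 151912346 to 151912428, plus strand, intronic to Huwe1, which encodes a ubiquitin ligase) had 9035 counts or 2198 CPM in replicate 1 and 8703 counts or 2728 CPM in replicate 2. Mirlet7f-2 had 17.6 times the counts of Mirlet7f-1 in replicate 1 and 19.1 times in replicate 2. Copy 1 held 5.36% of the pair's counts in replicate 1 (95% interval 4.92 to 5.83%) and 4.97% in replicate 2 (4.53 to 5.43%), a mean of 5.17% ± 0.279 (SD, n = 2). A microRNA gene annotated as Gm24111 covers the Mirlet7f-1 locus on the opposite strand, and it had 0 counts on its own strand in both libraries, which by counting error allows no more than 0.730 (replicate 1) and 0.940 CPM (replicate 2) of reads placed at 1 position. With strand ignored, Mirlet7f-1 had 0 counts in both libraries, because the tables then give reads in the overlap to neither gene.

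**Figure D2:**
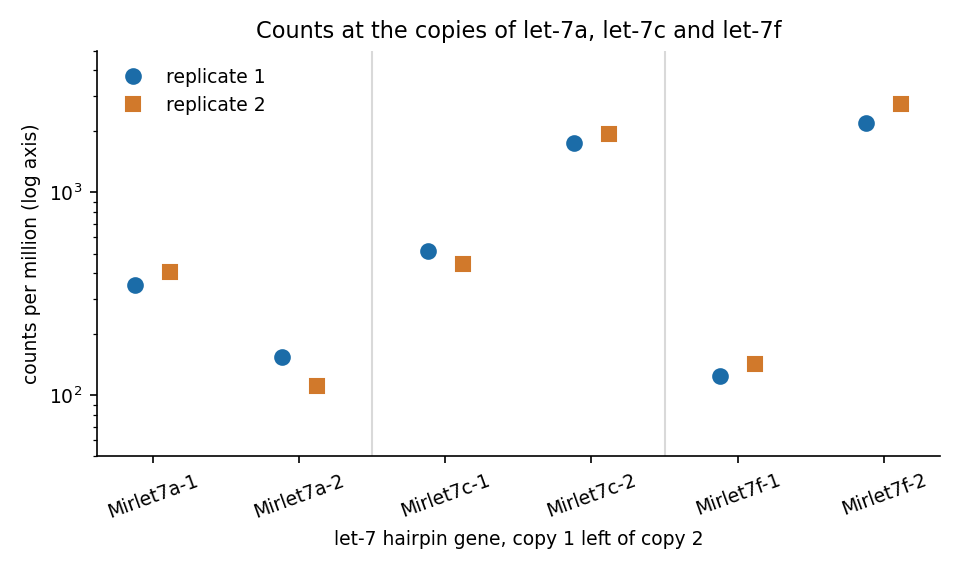
Level in CPM (log axis) of the 6 hairpin genes, with copy 1 left of copy 2 in each pair; circles are replicate 1 and squares replicate 2. Mirlet7a-1 lies above Mirlet7a-2, while Mirlet7c-2 and Mirlet7f-2 lie above their first copies, in both libraries. Multiply mapped reads are not part of the levels shown.

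**Figure D3:**
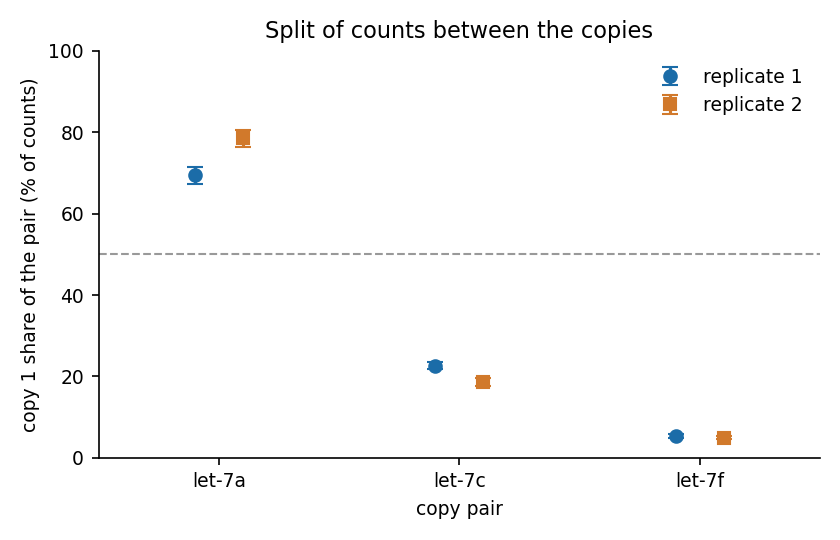
Share of a pair's counts at copy 1 (y axis, percent) for each pair (x axis) and library, with exact 95% intervals that cover counting error only; the dashed line marks an even split. The shares lie at 69.4 and 78.5% for let-7a, 22.7 and 18.6% for let-7c, and 5.36 and 4.97% for let-7f. Multiply mapped reads are not part of the shares.

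In each of the 3 pairs the split was uneven beyond read sampling in both libraries and in the same direction (two-sided exact binomial test of an even split, Benjamini-Hochberg adjustment over 24 pairs, threshold 0.05). The adjusted p for let-7a was 1.65e-71 in replicate 1 and 2.38e-125 in replicate 2, and those of let-7c and let-7f were too small to be written as a number. This test compares counts placed at a gene. The copies differ in which stretches of their hairpins occur in no other, so equal transcription need not give an even split of counts. Which copy was transcribed more was not tested. An uneven split was common. Of 52 pairs of genes in the table whose symbols differ only in the suffix -1 or -2, 24 had at least 10 counts at a copy in each library, and 19 of these, or 79.2%, were called. Of the 24 tested pairs, 8 (33.3%) were called with copy 1 higher and 11 (45.8%) with copy 2 higher, and in 75% of the tested pairs the copies were over 2-fold apart in both libraries. The mean log2 ratio over the 2 libraries was 1.53 ± 0.49 for let-7a, -1.95 ± 0.25 for let-7c and -4.20 ± 0.08 for let-7f (SD, n = 2). By absolute size these ranked at 16, 13 and 7 among the 24 pairs. The median absolute value was 1.95 over the let-7 pairs and 1.96 over all tested pairs.

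**Figure D4:**
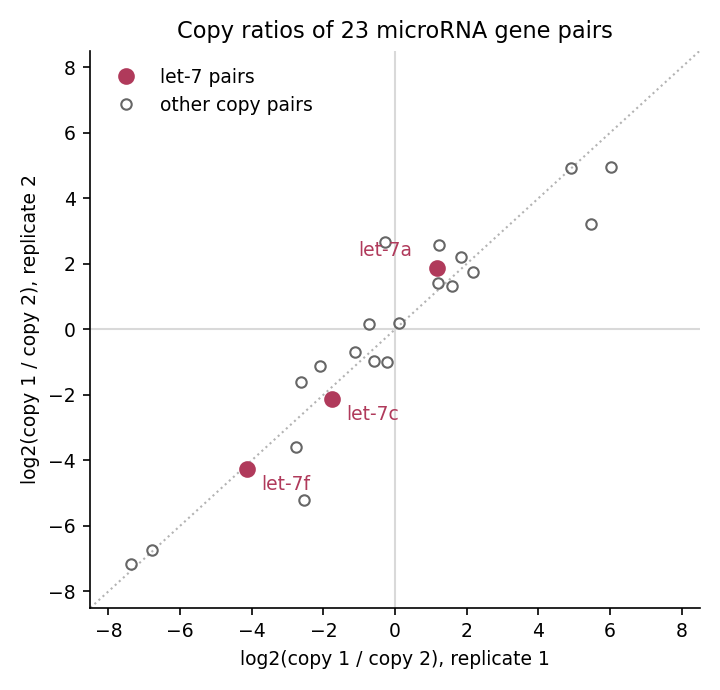
Log2 ratio of counts, copy 1 over copy 2, in replicate 1 (x axis) and replicate 2 (y axis) for 23 microRNA gene pairs; filled points are the let-7 pairs, open points the other 20 pairs, and the dotted line marks equal ratios. The let-7 pairs sit among the others, at 1.18 and 1.87 for let-7a, -1.77 and -2.13 for let-7c and -4.14 and -4.26 for let-7f. A pair with 0 counts at copy 1 in both libraries, Mir194, is not drawn. Multiply mapped reads are not part of the ratios.

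The split itself moved between the libraries for 2 of the 3 pairs, by a comparison chosen after the counts had been seen. The copy 1 share of let-7a was 9.11 percentage points lower in replicate 1 than in replicate 2 (two-sided Fisher's exact test over reads, adjusted p over 24 pairs = 1.35e-09), and that of let-7c was 4.06 points higher (adjusted p = 3.97e-10). For let-7f the shift was 0.395 points and did not pass (adjusted p = 0.313). Of all 24 pairs 62.5% passed this test, with a median absolute shift of 4.86 points.

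A feature outside the arms was also compared after the counts had been seen. Past the end of the shared 5p arm, the first base that told the copies of let-7a apart was the second, U in Mirlet7a-1 and A in Mirlet7a-2. For let-7c it was also the second, A in Mirlet7c-1 and U in Mirlet7c-2, and for let-7f it was the first, G in Mirlet7f-1 and U in Mirlet7f-2. The copy with U there had more counts in both libraries in all 3 pairs. Among the other tested pairs, 15 shared arms had U in one copy only at the base that told the copies apart, and the copy with U had more counts at 9 of them and fewer at 6. The arms with more were all in called pairs, while some of those with fewer were in pairs not called as uneven. A pair with both arms shared had an arm on each side. In all 3 let-7 pairs the base just before the 5p arm also differed between the copies. The number of let-7 pairs is small, and the part of either base in the split was not tested.

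Between the pairs, hairpins were closer to a member of another pair than to their own second copy. In end-to-end alignments Mirlet7a-1 and Mirlet7a-2 matched at 68.9% of the alignment columns, Mirlet7c-1 and Mirlet7c-2 at 67.3%, and Mirlet7f-1 and Mirlet7f-2 at 72.2%. Mirlet7a-1 matched Mirlet7f-2 at 80.0%, and Mirlet7a-2 matched Mirlet7c-1 at 79.2%. Mirlet7c-2 was closest to Mirlet7a-1, at 73.7%. Mirlet7f-1 was the exception, with its highest identity, 72.2%, to its own second copy. Predicted folding energies of the hairpins lay between -39.0 kcal/mol for Mirlet7f-2 and -48.4 kcal/mol for Mirlet7c-2. Within pairs they were -41.9 kcal/mol for Mirlet7a-1 and -39.8 for Mirlet7a-2, -41.4 for Mirlet7c-1 and -48.4 for Mirlet7c-2, and -43.1 for Mirlet7f-1 and -39.0 for Mirlet7f-2. The copy with more counts had the lower energy in the let-7a and let-7c pairs and the higher energy in the let-7f pair.

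Each member lies near other microRNA genes on the same strand, and most of these had far more counts. Mirlet7a-1 and Mirlet7f-1 lie 261 bases apart on chromosome 13. Mirlet7a-1 had 2.82 times the counts of Mirlet7f-1 in replicate 1 and 2.84 times in replicate 2, so their ratio hardly differed between the libraries. Mirlet7d is the single-copy let-7 gene of the same cluster. It lies 1714 bases from Mirlet7f-1 and had 241 times its counts in replicate 1 and 199 times in replicate 2. It lies 2064 bases from Mirlet7a-1 and had 85.5 times its counts in replicate 1 and 70.0 times in replicate 2. Mirlet7c-2 lies 621 bases from Mirlet7b, which had 30.5 times its counts in replicate 1 and 27.6 times in replicate 2. Mirlet7f-2 lies 785 bases from Mir98, a let-7 family member that had 2.04 times its counts in replicate 1 and 1.63 times in replicate 2, the closest match between a member and a let-7 neighbour outside the 6.

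Mirlet7a-2 and Mirlet7c-1 each follow a gene of the miR-99 and miR-100 family and precede a copy of miR-125b, an arrangement of clusters known across vertebrates. Mir100, 5211 bases from Mirlet7a-2, had 22.1 times its counts in replicate 1 and 49.6 times in replicate 2. Mir99a, 656 bases from Mirlet7c-1, had 26.2 times its counts in replicate 1 and 46.4 times in replicate 2. In both clusters this ratio was lower in replicate 1, where Mir100 and Mir99a stood lower (log2 ratio, replicate 1 over replicate 2, -0.68 for Mir100 and -0.61 for Mir99a) and the let-7 member stood higher. Mir125b-1 had 10.1 and 12.8 times the counts of Mirlet7a-2 in replicates 1 and 2. Mir125b-2 had 0.676 and 0.948 times those of Mirlet7c-1, and Mir125b-1 and Mir125b-2 are themselves copies of 1 mature form.

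Most members differed between the libraries beyond read sampling, as did most detected genes. By a two-sided exact binomial test of each gene's split against the library totals, with Benjamini-Hochberg adjustment over 406 detected genes, 5 of the 6 passed 0.05, where 58.1% of all detected genes did. This test compares 2 libraries, not conditions, and treats reads as independent. Mirlet7a-2 (log2 ratio of CPM, replicate 1 over replicate 2, 0.48; adjusted p = 1.04e-06) and Mirlet7c-1 (0.22; adjusted p = 2.66e-05) were higher in replicate 1, against 34.7% of all detected genes. Mirlet7f-2 (-0.31; adjusted p = 4.55e-46), Mirlet7a-1 (-0.21; adjusted p = 0.000403) and Mirlet7c-2 (-0.14; adjusted p = 3.93e-08) were lower in replicate 1, against 23.4%. Mirlet7f-1 did not pass (-0.20; adjusted p = 0.0639); with TMM library sizes it did (adjusted p = 0.00704). The members that were higher in replicate 1 were the lower copies of their pairs, both from the clusters with a miR-99 or miR-100 gene. The median absolute log2 ratio was 0.21 over the 6 and 0.30 over all detected genes. Summed cell type markers differed between the libraries too. Replicate 1 had 10449 CPM and replicate 2 had 13176 CPM of the endothelial marker. The microglia and leukocyte list summed to 6779 and 8870 CPM, and the erythroid list to 51.6 and 86.2 CPM. All were lower in replicate 1 like Mirlet7a-1, Mirlet7c-2 and Mirlet7f-2. Mir342 made up most of the microglia and leukocyte sum, at 5821 CPM (replicate 1) and 7986 CPM (replicate 2). Within that list Mir223 was lower in replicate 1 too (16.5 against 19.1 CPM). Mir142 (114 against 65.8 CPM) and Mir150 (827 against 799 CPM) were higher there. By the exact binomial test above, Mir342 (adjusted p = 8.50e-269) and Mir142 (adjusted p = 2.74e-11) passed. Mir223 (adjusted p = 0.521) and Mir150 (adjusted p = 0.263) did not. The oligodendrocyte list was higher in replicate 1, at 2864 CPM against 2531 CPM in replicate 2. The neuron-associated list stood at 35881 and 36020 CPM, the muscle list at 20.7 and 23.8 CPM. The part of these cells in the let-7 counts was not tested, and in bulk tissue fewer cells of a type and less RNA per cell cannot be told apart.

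Together the 6 genes held a small part of the let-7 counts that were placed at a gene. Multiply mapped reads are not part of these counts. Each of the 6 had an arm shared with another hairpin, whereas no single-copy gene of the family did. Whether the mature forms made from the 6 genes were scarce was not tested. The 6 genes made up 20998 counts in replicate 1, or 1.99% of the let-7 family counts (95% interval 1.96 to 2.02%). In replicate 2 they made up 18427 counts, or 2.18% (2.15 to 2.21%). The mean was 2.09% ± 0.134 (SD, n = 2). Of all gene counts the 6 genes made up 0.544% ± 0.0473 (SD, n = 2). Within the 6, Mirlet7f-2 held 45.1% ± 2.97 and Mirlet7c-2 34.1% ± 0.595, so the leading copies of these 2 pairs set most of the sum. The let-7f pair held 47.6% ± 2.99, the let-7c pair 43.0% ± 2.31 and the let-7a pair 9.43% ± 0.687 (SD, n = 2).

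All 6 lay below all 6 single-copy members of the family (Mirlet7b, Mirlet7d, Mirlet7e, Mirlet7g, Mirlet7i and Mir98) in both libraries. This is an order of counts placed at a gene, without the multiply mapped reads. Whether it holds for expression was not tested. The genes with 2 copies had a median of 434 CPM in replicate 1 and of 425 CPM in replicate 2, against 41930 and 41030 CPM for the single-copy genes. The highest of the 6, Mirlet7f-2 at 2463 ± 375 CPM, was still below Mir98, the lowest single-copy gene, at 4470 ± 27.2 CPM (SD, n = 2). After Mirlet7f-2 came Mirlet7c-2 at 1853 ± 129 CPM, Mirlet7c-1 at 481 ± 50.9 CPM, Mirlet7a-1 at 379 ± 38.3 CPM, Mirlet7f-1 at 134 ± 12.8 CPM and Mirlet7a-2 at 133 ± 31.1 CPM (SD, n = 2). Neighbours in this order did not overlap between the libraries except Mirlet7f-1 and Mirlet7a-2, whose places changed between the replicates. Hairpins were 83 to 96 bases long in the 6, and the order of all 12 family genes was the same per hairpin base.

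**Figure D5:**
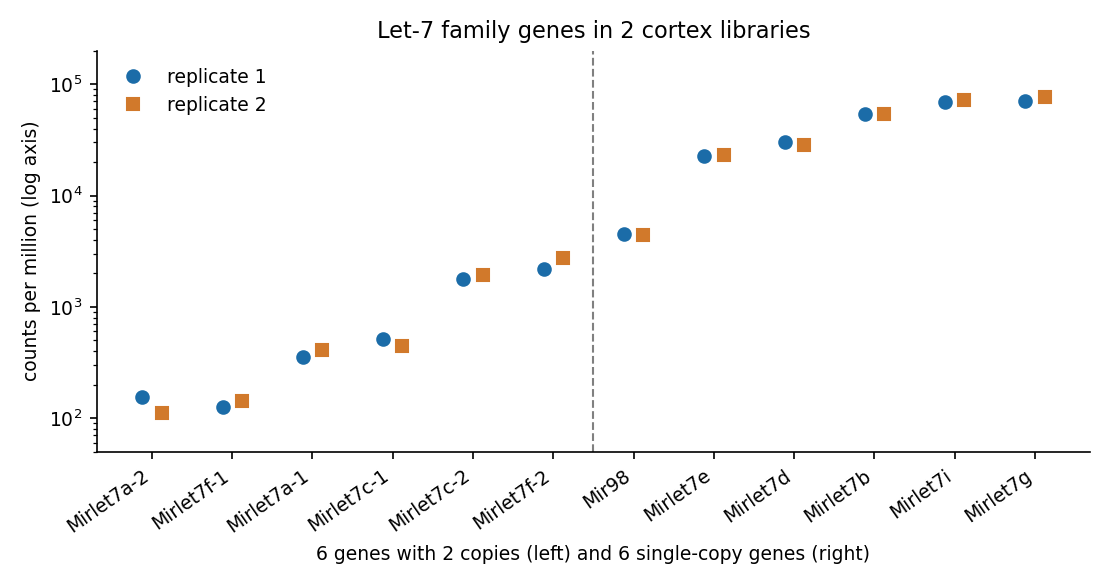
Level in CPM (log axis) of the 6 let-7 genes with 2 copies, left of the dashed line, and the 6 single-copy family genes, right of it, each in order of mean level; circles are replicate 1 and squares replicate 2. The left group runs up to 2728 CPM and the right group starts at 4450 CPM. Multiply mapped reads are not part of these levels.

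The same genes differ in whether their mature arms occur elsewhere. Each of the 6 single-copy genes had both arms found in no other microRNA hairpin, whereas none of the 6 with 2 copies did. In all, 1018 genes had a mature sequence in RefSeq. Of 906 genes with no shared arm 35.4% were detected, of 62 with some arms shared 64.5%, and of 50 with all listed arms shared 12.0%, or 6 genes. Mirlet7c-2 had the highest level of these 50 and Mirlet7a-1 ranked at 3, behind Mir219a-2 at 1531 CPM. In both pairs that contain a gene with no arm of its own, let-7a and let-7c, that gene was the copy with more counts. The part of the multiply mapped reads in the levels and splits of the let-7 genes was not tested, since how many of them were let-7 reads was not analysed here.

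In level the members stood among unrelated microRNAs. By the larger of the absolute differences in log2(CPM + 1) over the 2 libraries, the closest gene was Mir125b-2 for Mirlet7a-1 (0.06), Mir664 for Mirlet7a-2 (0.12), Mir346 for Mirlet7c-1 (0.02), Mir376a for Mirlet7c-2 (0.06), Mir325 for Mirlet7f-1 (0.07) and Mir93 for Mirlet7f-2 (0.30). This likeness rests on 2 libraries of 1 group and describes level only.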

How the data were processed

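The values are raw read counts per microRNA gene as deposited by the authors, without normalization; the mm10 assembly and GENCODE annotation M21 are named in the descriptions deposited beside the tables. The aligner and counting tool were not given in the sources used here. Of the 3 count columns, the one for the strand of the gene was used. The rows for unmapped, multiply mapped and unassigned reads name no gene and were left out of totals: they held 19.1%, 39.1% and 5.13% of all reads in replicate 1, and 17.5%, 41.4% and 4.66% in replicate 2. All 2202 IDs matched GENCODE M21.

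The members, lists and tests were chosen with earlier results of these data known. CPM was computed from the sum over genes. Shares have exact Clopper-Pearson 95% intervals, which cover counting error only, since sequenced reads lack molecular identifiers and several can stem from 1 molecule. Genes between libraries, and copies within each library, were compared with two-sided exact binomial tests and Benjamini-Hochberg adjustment over all detected genes or all copy pairs (SciPy 1.17.1). With 2 libraries the smallest p of a sign-flip test over samples is 0.5, so samples were not tested against each other. Genes named are the 6 members, the rest of the let-7 family, microRNA genes within 10 kb on the same strand with Mir125b-1 and Mir125b-2, the gene closest in level to each member, markers, and the most abundant gene of all, Mir139. Gm24111 and Mir194 were named after their values were seen. Hairpins were aligned with Biopython 1.88 and folded with ViennaRNA 2.7.2; stretches of 18 to 30 bases were compared among hairpins on both strands. TMM (edgeR 4.0.16) and DESeq2 1.42.0 size factors were alternatives. The CAST/Ei alleles of these hairpins were not analysed here. The tests were checked on simulated counts that held read sampling only, so not for a spread between libraries.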

Additional observations from a re-analysis of the deposited data

Results flagged for a closer look

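A large signal was not part of the let-7 counts. Reads with several matching positions in the genome were 39.1% of all reads in replicate 1 and 41.4% in replicate 2, or 4388585 and 3624634 reads. They came to 209 times the summed counts of the 6 let-7 genes in replicate 1 and 197 times in replicate 2. How many of them were let-7 reads was not analysed here.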

How the results depend on the processing

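The splits of let-7a and let-7c stayed within 1 SD of the libraries under each alternative run, and the 3 let-7 pairs were called under each setting tried for the copy pairs, where 17 to 20 pairs were called with both libraries and 20 to 22 with 1. With strand ignored the copy 1 share of let-7f was 0%, since Mirlet7f-1 overlaps Gm24111, and the family share of the 6 was 2.23%. The overlap fixed the let-7f call in that setting in advance. With counts divided by hairpin length the copy 1 share of let-7f was 4.83%. Leaving out the most abundant gene, Mir139, gave 0.599% of all counts for the 6, and leaving out Mirlet7f-2 gave 0.299%. Without either replicate the copy 1 shares ranged from 69.4 to 78.5% (let-7a), 18.6 to 22.7% (let-7c) and 4.97 to 5.36% (let-7f), the share of all counts from 0.511 to 0.578% and the family share from 1.99 to 2.18%; with 2 libraries such values cannot move by more than 1 SD. Of the 6 members 5 differed between the libraries with an adjusted p under 0.01 (52.0% of all genes tested), with strand ignored (56.7%), with no count minimum (31.0%) and at a minimum of 50 counts (74.6%), and 6 with TMM (54.4%) or DESeq2 factors (54.2%), which lowered each log2 ratio by 0.08: 2 were then higher and 4 lower in replicate 1. With strand ignored Mirlet7f-1 was not tested between the libraries, so the 5 were all the members tested in that setting. No paired analysis was possible because there was 1 group. Counting error was largest for the let-7a split, which had the widest 95% interval of the 3 pairs in each library. Its intervals in replicate 1 (67.4 to 71.4%) and replicate 2 (76.5 to 80.5%) did not overlap, so the libraries differed beyond counting error.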
